A study of Mus musculus with 4 samples.

Results

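The genes described here are 10 cytokine receptor chains through which CD8+ T cells receive memory and effector signals, chosen by name from the 17561 genes of the count table: Il7r, Il2ra, Il2rb, Il2rg, Il15ra, Il21r, Il18r1, Il18rap, Il12rb2 and Ifngr1. All 10 were present with 1 row each, and 9 of them reached 5 counts-per-million (CPM) over all cells, the minimum for a gene to be counted in a comparison. Il2ra, at 4.63 CPM, did not, and its values are given apart. The cells were CD8+ T cells sorted by FACS from bone marrow (BM) of C57BL/6 background mice, WT or CRBN transgenic, a transgene that changes cereblon so that lenalidomide acts in mouse cells. The recipients were female and carried Vk12653 myeloma before stem cell transplantation (SCT), and each received BM and T cells from genetically matched donors. The 4 treatments were isotype control with vehicle (cIg), TIGIT inhibition with vehicle (αTIGIT), isotype control with lenalidomide, and TIGIT inhibition with lenalidomide. Antibody or isotype began on the day of SCT and lenalidomide or vehicle on day 14, and cells were taken at week 4. Each treatment was 1 library of 5 pooled mice, and the labels do not say which mice carried the transgene. The deposited tables number the libraries 1 to 4 without naming a treatment, so no treatment was compared and every value is given over the 4 libraries or by library number.

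Most of these chains work in shared complexes. The common γ chain, encoded by Il2rg, joins the IL-7 receptor α chain (Il7r), the IL-2 and IL-15 receptor β chain (Il2rb) and the IL-21 receptor (Il21r), and signals through Janus kinases and STAT proteins. IL-7 supports the survival of naive T cells and IL-15 that of memory CD8+ T cells, while high-affinity IL-2 binding needs the α chain Il2ra, which activated cells induce. Il15ra binds IL-15 and can present it to neighbouring cells. IL-18 signals through Il18r1 and its accessory chain Il18rap by way of MyD88, and IL-12 through Il12rb1 and the inducible chain Il12rb2, and both cytokines promote interferon-γ production. Ifngr1 is the ligand-binding chain of the interferon-γ receptor.

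The table held 11754 cells in 8 clusters named by the authors: naive (Tn), central memory (Tcm), transitory effector (transitory Teff), GzmB+ Teff, TIM-3+ exhausted (TIM-3+ Tex), GzmA+ Tex, TIGIT+ Teff and cycling cells. Libraries held 1725 to 4237 cells and 15556967 to 38440687 unique molecular identifiers (UMIs, each standing for a captured RNA molecule), with a median of 7115 to 7669 UMIs per cell, and 56 barcode sequences occurred in more than 1 library. TIM-3+ Tex of library 3 held 31 cells. A list of 4 CD8 T cell genes stood at 2442 CPM in Tcm, the lowest cluster, 3093 in Tn and up to 6289 in TIM-3+ Tex. Cd8b1 of this list was lower by more than 2-fold in Tcm than in Tn, and lower in each of the 4 libraries. Other transcripts set some clusters apart: macrophage and monocyte genes summed to 1620 CPM in GzmA+ Tex against 17.5 to 271 elsewhere, nuclear-retained RNA to 6671 CPM in TIGIT+ Teff against 2322 to 3043, and a list of 2 NK cell genes to 247 CPM in Tcm against 10.5 to 69.3. The macrophage and monocyte list includes Fcer1g, which the paper associates with innate-like T cells. In Tcm against Tn, Lyz2 and Fcer1g were the genes of this list past 2-fold, both higher. Isg15, an interferon-induced gene, stood at 1086 CPM in GzmB+ Teff against 22.2 to 105.8 elsewhere. Several cluster names were not set apart by their markers: the transitory Teff list summed to 854 CPM in its own cluster and 1080 in TIM-3+ Tex, the TIGIT+ Teff list to 613 and 847, and Gzma stood at 684 CPM in GzmA+ Tex and 1192 in TIM-3+ Tex. Of the Tcm markers, which include Il2rb itself, Ly6c2 and Eomes were lower in Tcm (1474 and 159.5 CPM) than in GzmB+ Teff (2056 and 189). With 1 library per treatment and clusters built from the same expression values, no test was made. Intervals are at the 95% level and cover counting error alone and say nothing of how mice vary.

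Levels by cluster are shown in the plot of CPM for the 10 genes. The order of the 8 clusters could be read for few neighbours. Of 70 neighbouring pairs over the 10 genes, 26 had separate intervals, and 18 of these also had the same order in each of the 4 libraries. Because capture differs between transcripts, levels are compared between clusters for 1 gene and not between genes.

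**Figure D1:**
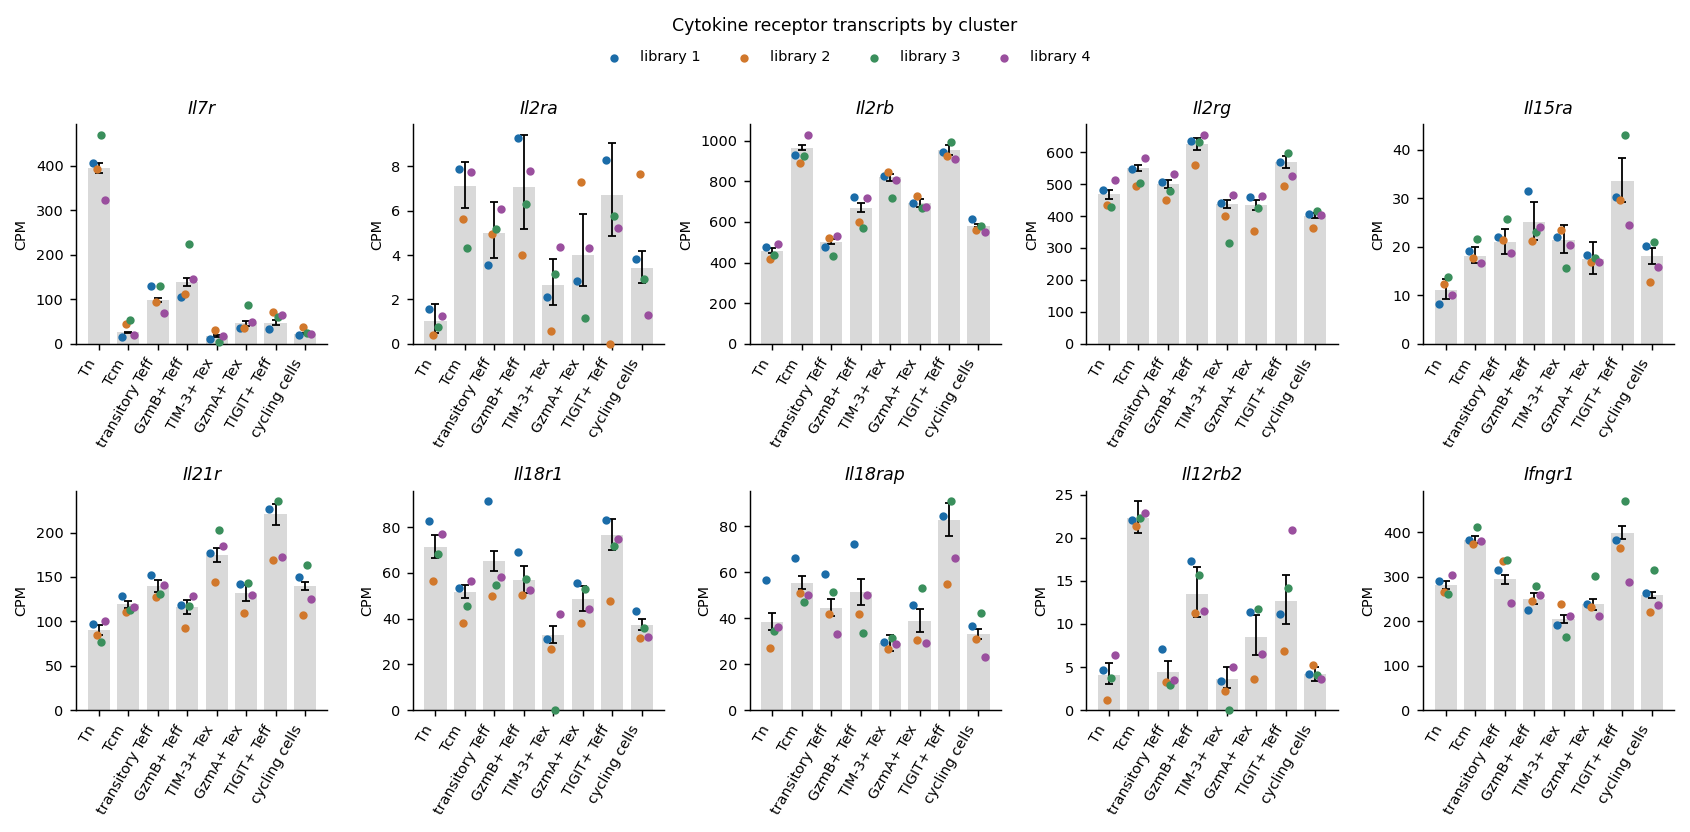
Levels of each receptor gene (CPM, linear axis from 0) in the 8 clusters. Grey bars are all cells of the 4 libraries, black lines the 95% Poisson interval, and coloured points the 4 libraries; Il7r stands at 395 CPM in Tn and 17.1 in TIM-3+ Tex, and Il12rb2 is highest in Tcm in each library.

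The shared chain Il2rg (ENSMUSG00000031304, chrX:101264378-101268255, minus strand) varied least among the 10. Its level ran from 401 CPM in cycling cells to 624 in GzmB+ Teff, a 1.56-fold range. GzmB+ Teff values were 636, 559, 631 and 654 CPM in libraries 1 to 4, the highest of the 8 clusters in each. The lowest cluster differed by library, being cycling cells in libraries 1 and 4, GzmA+ Tex in library 2 and TIM-3+ Tex in library 3. After thinning every cell to 2500 UMIs, between 59.5% (GzmA+ Tex) and 76.8% (GzmB+ Teff) of cells held at least 1 Il2rg UMI. No cell type that lacks these receptors was in the table, so a share that free RNA alone would give was not measured.

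Il7r (ENSMUSG00000003882, chr15:9505788-9530176, minus strand) had the widest range of the 9 genes above the minimum. Tn cells held 406, 394, 469.8 and 324 CPM in libraries 1 to 4, and no other cluster of any library exceeded 224. GzmB+ Teff followed with 105, 112, 224 and 145 CPM, then transitory Teff with 129.6, 94.5, 129.7 and 69.2. These groups of libraries did not overlap between Tn and either Teff cluster, but GzmB+ Teff and transitory Teff changed order in library 1. Tcm cells, the cluster named for central memory, held only 15.7, 44.1, 52.5 and 19.8 CPM, close to cycling cells at 18.7, 37.6, 23.7 and 22.7. TIM-3+ Tex was the lowest cluster in each library, at 11.9, 31.1, 3.13 and 18.0 CPM. Over all libraries Tn stood 23.1-fold above TIM-3+ Tex. TIGIT+ Teff (46.9 CPM) and GzmA+ Tex (46.2 CPM) lay between and could not be ordered. In GzmA+ Tex, where macrophage transcripts were high, Il7r was 46.1 CPM in cells with a UMI of the macrophage or B and plasma cell lists and 46.6 in cells without. In GzmB+ Teff the corresponding levels were 68.4 (121 cells) and 154.5 (611 cells), and in transitory Teff 120.5 and 95.98. These lists include Fcer1g, so a UMI of them does not by itself mark another cell type. The part of these UMIs in the Il7r level was not tested.

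The share of cells with the Il7r transcript gave the same order of these clusters. At 2500 UMIs per cell, 52.5% of Tn cells had an Il7r UMI, against 19.0% of GzmB+ Teff, 13.4% of transitory Teff, 4.42% of Tcm and 2.18% of TIM-3+ Tex. Without thinning the shares in the same order were 74.1%, 33.2%, 20.8%, 9.13% and 7.20%. The transitory Teff cluster was mixed in this respect: its 66 cells whose Leiden number belonged to Tn held 373 CPM, the 1324 with its own number 114, the 205 with the GzmB+ Teff number 32.5, and the 287 with the TIM-3+ Tex number 15.1.

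The Il7r and Il12rb2 promoters are printed because these 2 genes differed most among the 9 both between clusters and with clone size, and theirs were the only windows found to hold both searched motifs. Each sequence is the 250 bases before the RefSeq start site (GRCm38.p6), 5′ to 3′ on the gene's strand, with motif matches in capitals. The motifs were TTCNNNGAA, the interferon-γ-activated site (GAS) that STAT proteins can bind, and TCACAC, part of the element of T-box factors, each searched on both strands.
Il7r: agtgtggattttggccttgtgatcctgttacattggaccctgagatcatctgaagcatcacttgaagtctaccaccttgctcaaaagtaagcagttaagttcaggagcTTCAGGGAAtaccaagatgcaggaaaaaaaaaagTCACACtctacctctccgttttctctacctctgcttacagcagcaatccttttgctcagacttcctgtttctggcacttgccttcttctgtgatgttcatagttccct
Il12rb2: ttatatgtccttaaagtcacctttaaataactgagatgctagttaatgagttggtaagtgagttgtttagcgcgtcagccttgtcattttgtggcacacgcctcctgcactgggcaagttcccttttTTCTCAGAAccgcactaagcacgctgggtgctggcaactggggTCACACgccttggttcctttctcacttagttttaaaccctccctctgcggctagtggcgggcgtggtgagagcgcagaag
The Il7r window lay at chr15:9529877-9530126 and its first 86 printed bases were shared with an exon of a non-coding transcript of the gene. Its GAS match spanned bases -142 to -134 from the start site and its TCACAC match bases -108 to -103. The Il12rb2 window lay at chr6:67376189-67376438, with the GAS match at -123 to -115 and TCACAC at -80 to -75. No match overlapped another. RefSeq held 12 windows for 9 of the 10 genes, with none for Il2rb. The remaining matches were 2 of GAS in 1 of the 3 windows of Il18r1, which overlaps exons and is not shown. Over 32851 windows of this length, 7.02% held TTCNNNGAA and 12.3% held TCACAC. A match is a run of letters and was not tested as a binding site.

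Il2rb (ENSMUSG00000068227, chr15:78479256-78495271, minus strand), the β chain for IL-2 and IL-15, was high where Il7r was low, though not in every cluster. Tcm cells held 930, 889.9, 925 and 1029 CPM in libraries 1 to 4 and TIGIT+ Teff 944, 924, 996 and 909.6, and these clusters could not be ordered. TIM-3+ Tex came next with 827, 846, 719 and 808. Tn was low at 476, 416, 439 and 494 CPM, a range that overlapped transitory Teff at 475, 519.8, 431 and 533. The highest and the lowest cluster differed 2.11-fold. At equal depth 89.4% of Tcm, 83.1% of TIM-3+ Tex and 62.7% of Tn cells held an Il2rb UMI. The scatter of Il7r against Il2rb shows the profiles of the 8 clusters in the 4 libraries, over which log2(CPM + 10) of the 2 genes had a Pearson r of -0.62. These 32 points share libraries and depth, so r is a description. Cycling cells were low in Il7r without a high Il2rb level, at 614, 559, 581 and 549 CPM.

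**Figure D2:**
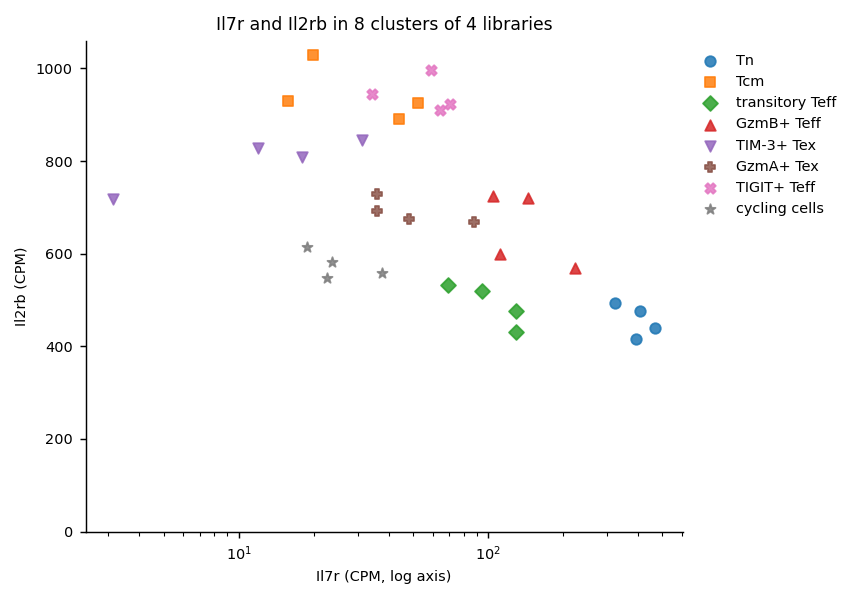
Il7r CPM (x axis, log scale) against Il2rb CPM (y axis) for the 32 profiles of 8 clusters in 4 libraries, 1 point each, coloured by cluster. Tn profiles lie at the right with Il2rb between 416 and 494 CPM, Tcm profiles at the upper left with Il2rb between 889.9 and 1029.

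Il2ra (ENSMUSG00000026770, chr2:11642807-11693193, plus strand), the α chain of the high-affinity IL-2 receptor, was near the limit of detection. It gave 491 UMIs in all cells, 11 of them in Tn. Levels by cluster ran from 1.01 CPM (0.504 to 1.81) in Tn to 7.10 (6.11 to 8.21) in Tcm, and no neighbouring pair of clusters had separate intervals. Tn held 1.56, 0.400, 0.745 and 1.27 CPM in libraries 1 to 4. Tcm held 7.87, 5.63, 4.32 and 7.73, so these clusters did not overlap. At 2500 UMIs, 0.298% of Tn and 1.64% of Tcm cells held a UMI. In TIGIT+ Teff of library 2 (50 cells) none was counted, which allows up to 6.84 CPM. Il2ra and Il15ra are neighbours 12.1 kb apart with no protein-coding gene between.

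Il15ra (ENSMUSG00000023206, chr2:11705290-11734317, plus strand), which binds IL-15, was lowest in Tn in every library, at 8.21, 12.4, 13.8 and 10.2 CPM. GzmA+ Tex, the next lowest over all libraries, held 18.3, 16.8, 17.7 and 16.8, above Tn in each. TIGIT+ Teff held the most, with 30.3, 29.6, 43.1 and 24.4 CPM, but its interval met that of GzmB+ Teff and the libraries disagreed, GzmB+ Teff leading in library 1. Neighbours among the 6 clusters in between could not be ordered. Shares at equal depth ran from 2.91% in Tn to 11.0% in TIGIT+ Teff.

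Il21r (ENSMUSG00000030745, chr7:125603429-125633570, plus strand), the IL-21 receptor, was also lowest in Tn in each library, at 96.9, 84.3, 76.7 and 100.2 CPM. TIGIT+ Teff held 227, 169, 235 and 173 CPM and TIM-3+ Tex 177, 145, 203 and 185, with the order turned in library 4. Both stood above cycling cells, at 149.9, 107, 164 and 126. The highest cluster exceeded the lowest 2.45-fold. Shares at equal depth ran from 21.2% in Tn to 46.5% in TIGIT+ Teff. TIGIT+ Teff, where nuclear-retained RNA was high, was over all libraries also the highest cluster for Il15ra, Il21r, Il18r1, Il18rap and Ifngr1. By library it was the highest in 3, 3, 1, 4 and 2 of the 4, respectively. The part of the nuclear-retained RNA in these values was not tested.

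The IL-18 receptor chains are encoded side by side, Il18r1 (ENSMUSG00000026070, chr1:40465552-40500854, plus strand) and Il18rap (ENSMUSG00000026068, chr1:40515362-40551705, plus strand), 14.5 kb apart with no protein-coding gene between. Il18r1 was similar in Tn (82.9, 56.3, 68.5 and 77.0 CPM in libraries 1 to 4) and TIGIT+ Teff (83.1, 47.9, 71.9 and 74.9). TIM-3+ Tex was low, with 31.1, 26.7, 0 and 41.9 CPM, where the count of 0 in the 31 cells of library 3 allows up to 9.38 CPM. Il18r1 in cycling cells was 43.3, 31.8, 36.0 and 31.9, which overlapped TIM-3+ Tex. Il18rap did not share the high Tn level. TIGIT+ Teff led in each library with 84.3, 54.7, 90.8 and 66.2 CPM, ahead of Tcm with 66.3, 50.9, 47.2 and 50.2. Il18rap in Tn was 56.7, 27.2, 34.3 and 36.1, and TIM-3+ Tex 29.8, 26.7, 31.3 and 28.8. At equal depth the share of cells with Il18r1 ran from 6.63% in TIM-3+ Tex to 18.5% in TIGIT+ Teff, and with Il18rap from 5.87% to 19.98% in the same clusters.

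Il12rb2 (ENSMUSG00000018341, chr6:67291318-67376188, minus strand), the inducible IL-12 receptor chain, was highest in Tcm. This cluster held 22.1, 21.3, 22.3 and 22.8 CPM in libraries 1 to 4, above the 7 other clusters in each. GzmB+ Teff held 17.3, 11.3, 15.7 and 11.5 CPM. Tn was at 4.69, 1.20, 3.72 and 6.34, transitory Teff at 7.09, 3.29, 2.95 and 3.44 and cycling cells at 4.24, 5.19, 4.02 and 3.62, which could not be ordered. TIM-3+ Tex held 3.41, 2.22, 0 and 4.95. Tcm stood 6.18-fold above TIM-3+ Tex, from 572 UMIs in Tcm and 37 in TIM-3+ Tex. At equal depth 5.24% of Tcm cells held a UMI, against 1.19% of Tn and 0.952% of transitory Teff. The list of 2 NK cell genes moved with it, at 247 CPM in Tcm (libraries 229 to 266) with a UMI in 41.6% of cells, nearly all from Klrb1c (242 CPM), which encodes an NK cell receptor. Ncr1, which defines NK cells, gave 4.92 CPM in Tcm and 0 UMIs in Tn. The part of these transcripts in the Il12rb2 level was not tested.

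Ifngr1 (ENSMUSG00000020009, chr10:19591949-19610229, plus strand), the ligand-binding chain for interferon-γ, was highest in TIGIT+ Teff (384, 365, 470.0 and 288 CPM in libraries 1 to 4) and Tcm (382, 375, 411 and 380.3), which could not be ordered. Tcm exceeded transitory Teff in each library, the latter at 314, 336, 338 and 241. TIM-3+ Tex was lowest over all libraries, with 193, 238, 166 and 211 CPM, but in library 2 cycling cells, at 222, were lower. Its range over clusters was 1.94-fold. Between 35.9% (TIM-3+ Tex) and 63.5% (TIGIT+ Teff) of cells held an Ifngr1 UMI at equal depth. Its partner chain Ifngr2 gave 0.962 CPM over all cells and was below the minimum.

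The first comparison follows cells from naive to effector and exhausted states, setting the 5 Teff and Tex clusters together against Tn. The clusters took unlike shares of this class in the 4 libraries, TIGIT+ Teff making up 23.0%, 5.07%, 39.2% and 3.94% and TIM-3+ Tex 25.7%, 18.4%, 4.49% and 23.9% of its cells in libraries 1 to 4. Il7r was lower and Il15ra higher by more than 2-fold, 2 of the 9 genes. Of 8957 genes tested, 10.8% were higher and 1.03% lower by that fold, and the median log2 ratio was 0.30 over all genes and 0.28 over the 9. Il7r stood at 69.4 against 395 CPM, a log2 ratio of -2.51 (-2.58 to -2.44), with -2.83, -2.44, -2.13 and -2.28 in libraries 1 to 4, and -1.65 with 1 cell kept per clonotype. Il15ra, at 23.1 against 11.1 CPM, had 1.06 (0.78 to 1.34), with 1.56, 0.79, 1.10 and 0.99, so that only libraries 1 and 3 passed 2-fold; without library 1, or without the TIGIT+ Teff cluster, it was no longer past it. Il21r (0.79) and Il2rb (0.61) were above 0 in each library and Il18r1 (-0.37) below 0 in each, with an interval that held 0 in library 3. Il2rg (0.11) was above 0 in each library too, but its interval left out 0 in library 3 alone. Il12rb2 had 0.85 (0.40 to 1.34), and passed 2-fold without library 4, whose own ratio was 0.03, and at 1.46 with 1 cell kept per clonotype. Il18rap (0.28) and Ifngr1 (-0.04) had both signs among libraries. Il2ra, outside the count, had 2.26 (1.40 to 3.29) from 207 and 11 UMIs.

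**Figure D3:**
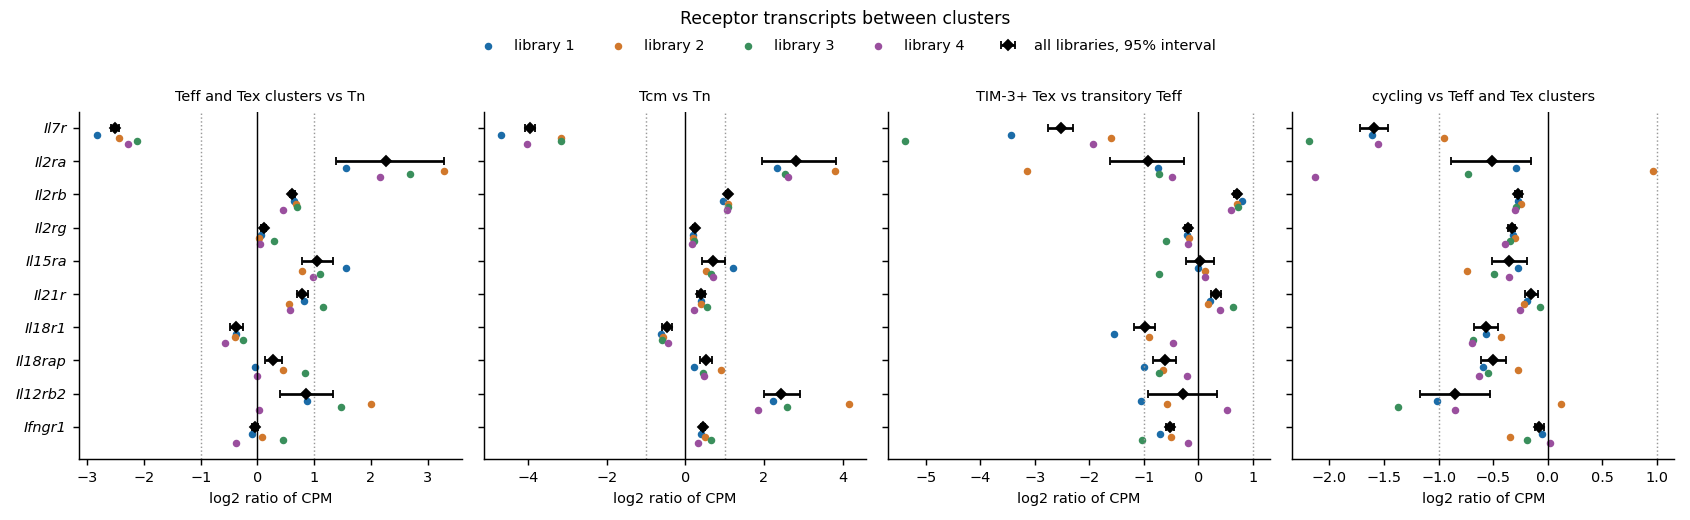
Log2 ratio of CPM for each receptor gene in the 4 cluster comparisons, with diamonds for all libraries, lines for the 95% counting interval and dots for single libraries; dotted lines mark 2-fold. Library 3 has no point where it held 0 UMIs. The Il7r diamond lies below the lower line in each comparison, at -2.51, -3.96, -2.53 and -1.59.

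Against Tn, Tcm cells were lower in Il7r and higher in Il2rb and Il12rb2. These were 3 of the 9 genes, where 1.25% of 8957 genes were lower and 4.20% higher by more than 2-fold, and the median log2 ratio was 0.13 over all genes and 0.45 over the 9. Il7r had a log2 ratio of -3.96 (-4.08 to -3.84), with -4.69, -3.16, -3.16 and -4.03 in libraries 1 to 4. Il2rb had 1.07 (1.03 to 1.12), with 0.97, 1.10, 1.07 and 1.06. Il12rb2 had 2.44 (1.996 to 2.906), with 2.24, 4.15, 2.58 and 1.85. The same 3 genes passed 2-fold when any 1 library was left out. Ifngr1 (0.45), Il18rap (0.53), Il15ra (0.71), Il21r (0.40) and Il2rg (0.23) were above 0 in each library, and Il18r1 (-0.47) below 0 in each. Il2ra had 2.82 (1.94 to 3.84).

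TIM-3+ Tex was then set against transitory Teff, an exhausted against an effector cluster. Il7r alone among the 9 genes was past 2-fold, lower, where 1.32% of 8959 genes were lower and 1.61% higher, with a median log2 ratio of 0.05 over all genes and -0.28 over the 9. Its log2 ratio was -2.53 (-2.76 to -2.30), and -3.44, -1.60, -5.38 and -1.94 in libraries 1 to 4, the value of library 3 resting on 1 UMI in TIM-3+ Tex. Il18r1 lay just short of 2-fold at -0.98 (-1.17 to -0.80) and passed it without library 2 or without library 4, and under 7 of the other settings tried. Ifngr1 (-0.51) and Il2rg (-0.19) were lower in each library, and Il2rb (0.71) and Il21r (0.32) higher in each. Il18rap had -0.62, Il12rb2 -0.28 and Il15ra 0.03.

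The TIM-3+ Tex value of Il7r depended on which cells were counted. Cells with a T cell receptor (TCR) call held 2.92 CPM and those without 25.3, with a median of 5664 and 12860 UMIs per cell, respectively. In transitory Teff the corresponding levels were 88.2 and 118 CPM, with 5092 and 9427 UMIs. Restricted to cells with a TCR call and 1 TRB chain, the log2 ratio of TIM-3+ Tex to transitory Teff was -4.58 for Il7r, -1.60 for Il18r1, -1.13 for Il18rap and -1.21 for Il12rb2, so 4 genes were past 2-fold. The share of all genes past 2-fold in these cells was not computed, so the 4 have no background beside them. Over all TIM-3+ Tex cells with a TCR call, Il7r gave 11 UMIs and Il12rb2 6. With every cell thinned to 2500 UMIs the Il7r ratio over all cells was -3.18. The part of the missing TCR calls in these values was not tested.

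Cycling cells were compared with the 5 Teff and Tex clusters together. Il7r was the only 1 of the 9 genes past 2-fold, with a log2 ratio of -1.59 (-1.72 to -1.47), and -1.61, -0.95, -2.18 and -1.56 in libraries 1 to 4. Of 8960 genes 1.34% were lower and 5.40% higher, with a median log2 ratio of 0.02 over all genes and -0.35 over the 9. Il2rb (-0.27), Il2rg (-0.33), Il15ra (-0.35), Il21r (-0.15), Il18r1 (-0.57) and Il18rap (-0.50) were below 0 in each library. Il12rb2, at -0.85 (-1.17 to -0.53), was past 2-fold without library 2, where it was 0.12. Ifngr1 had -0.08 and Il2ra -0.51.

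Clone size gave a division of cells that does not use their expression. Within transitory Teff, 866 cells of 86 clones with more than 5 cells in a library were set against 368 cells whose clonotype was seen in 1 cell. Il7r stood at 35.6 CPM in the larger clones and 192 in the single clonotypes, a log2 ratio of -2.43 (-2.69 to -2.18), and -2.92, -1.71, -3.13 and -2.14 in libraries 1 to 4. It was at the 0.347 percentile of 8947 genes, of which 2.26% were lower and 1.90% higher by more than 2-fold. Il12rb2, the other gene past 2-fold, had 6 and 14 UMIs, with a log2 ratio of -2.16 (-3.83 to -0.69). Only libraries 1 (-1.52) and 4 (-2.44) held its UMIs on both sides, and with 1 cell per clone it rested on 1 and 14 UMIs, with an interval of -7.04 to 1.08. The IL-18 receptor chains were lower in the larger clones in each library. Il18r1 stood at 54.1 against 99.7 CPM, with log2 ratios of -0.96, -0.97, -1.50 and -0.73 by library. Il18rap stood at 37.3 against 71.4 CPM, with -0.89, -0.98, -1.08 and -0.93. With 1 cell per clone Il18r1 had a log2 ratio of -1.10 (-1.74 to -0.51), past 2-fold, and Il18rap of -0.41, with an interval that held 0 (-1.02 to 0.15). Ifngr1 was lower by less, at 278 against 352 CPM, a log2 ratio of -0.34 and below 0 in each library. Il2rb (499.6 against 465 CPM), Il2rg (503 against 546), Il21r (144 against 124) and Il15ra (21.0 against 22.3) stayed within a log2 ratio of 0.22 of 0. Il2ra, outside the count, had 8 and 26 UMIs, or 1.67 against 10.4 CPM. Its log2 ratio was -2.64 (-3.99 to -1.45), with values in 2 libraries, -2.55 in library 2 and -1.96 in library 4. Without library 1, Il18rap was also past 2-fold.

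**Figure D4:**
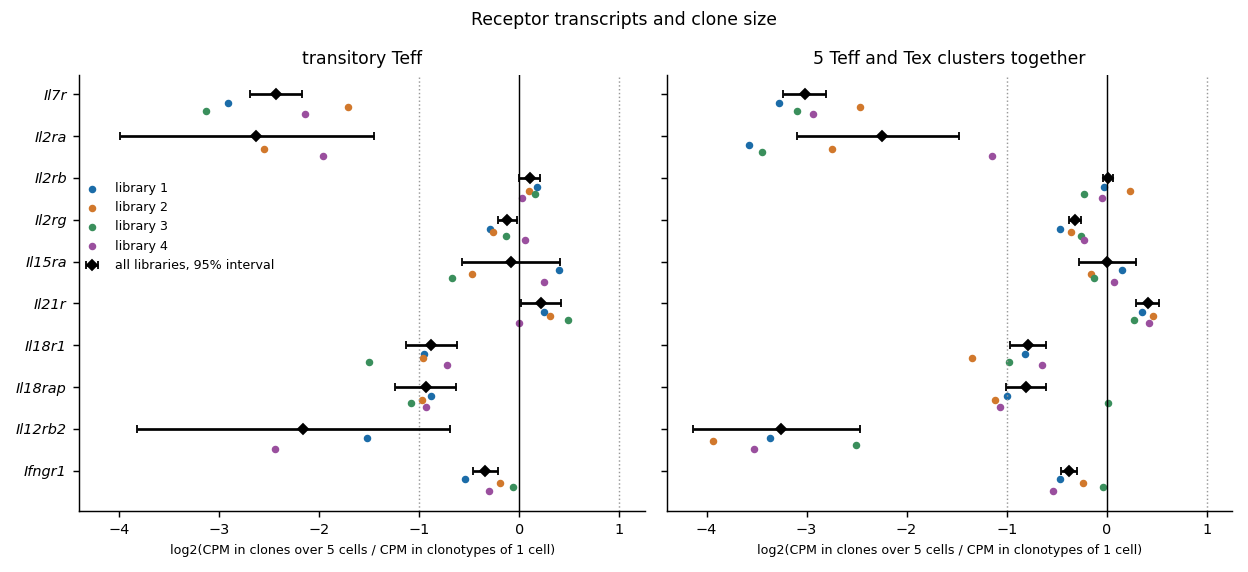
Log2 ratio of CPM between cells of clones with more than 5 cells and cells of clonotypes seen in 1 cell, in transitory Teff (left) and in the 5 Teff and Tex clusters together (right). Diamonds are all libraries with the 95% counting interval, dots are libraries, and dotted lines mark 2-fold; Il7r lies at -2.43 and -3.02.

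Other genes moved with clone size in the same cells. Genes of naive cells were lower in the larger clones of transitory Teff, as Il7r was. Ccr7 stood at 7.08 against 32.7 CPM, a log2 ratio of -2.21 (-2.83 to -1.61). Dapl1 had -1.45 (-1.86 to -1.05), and Lef1, a transcription factor of naive T cells, -0.71 (-0.96 to -0.47). Over the 5 Teff and Tex clusters the ratios of these genes were -3.98, -2.54 and -1.17. In transitory Teff the TIM-3+ Tex marker list summed to 1235 CPM in the larger clones and 480.4 in single clonotypes. NK cell genes summed to 5.21 and 16.0 CPM, macrophage and monocyte genes to 29.4 and 61.4, and CD8 T cell genes to 5737 and 4235. Their part in the receptor values was not tested. When only cells whose Leiden number also belonged to transitory Teff were kept, Il7r and Il12rb2 were again the genes past 2-fold. Over the 5 Teff and Tex clusters, with 1731 cells of 89 clones and 1010 single clonotypes, Il7r had a log2 ratio of -3.02 and Il12rb2 of -3.25 (15 and 107 UMIs), both below 0 in each library. The classes lay in different clusters, TIM-3+ Tex giving 484 cells of the larger clones and 42 single clonotypes and GzmB+ Teff 90 and 361, and how far this set the pooled ratios was not tested. Il7r was also lower in larger clones of GzmB+ Teff (-3.89, -5.21 to -2.83) and GzmA+ Tex (-3.76, -5.42 to -2.48, values in 3 libraries), which held 7 and 5 Il7r UMIs. TIGIT+ Teff had -2.17 (-2.98 to -1.42), with 19 UMIs and values in 2 libraries, and cycling cells -2.90 (-3.43 to -2.40), with 43. In GzmB+ Teff other genes also set the classes apart. Ccr7 stood at 0 CPM in larger clones against 104.5, and the TIM-3+ Tex list at 1623 against 156. In TIM-3+ Tex, with 42 cells of single clonotypes, Il7r gave 7 and 4 UMIs, and the interval of the ratio ran from -4.19 to 0.01.

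Clone size and cluster could be separated in part. Among cells of the larger clones, TIM-3+ Tex (484 cells) held 2.27 CPM of Il7r, from the same 7 UMIs, and transitory Teff 35.6, a log2 ratio of -3.97 (-5.31 to -2.90), and among single clonotypes, with 4 UMIs in TIM-3+ Tex, the ratio was -4.19 (-6.07 to -2.83). Il18r1 had -1.34 in larger clones and -1.79 in single clonotypes, Ifngr1 -0.79 and -0.92, and Il2rb 0.82 and 0.66. So the cluster difference of these 4 genes had the same sign in both clone classes. Il18rap had -0.61 and -0.96. Il2rg had -0.23 and -0.13 and Il21r 0.52 and 0.08, where the interval in single clonotypes held 0 for each. Il12rb2 changed sign, with -1.94 and 0.50, and Il15ra had 0.006 and 0.50, all with intervals that held 0. Il2ra had no ratio in single clonotypes.

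The 9 genes and Il2ra formed 45 pairs, and detection of both genes in the same cell was compared with the product of their shares within each cluster and library, at 2500 UMIs per cell. For 9 of the pairs the interval left out 1, above it for 8 and below it for 1. The chains of the IL-18 receptor were found together in 255 cells against 167 from the product, a ratio of 1.53 (1.35 to 1.73). By cluster this ratio was 3.01 (1.56 to 5.26) for TIM-3+ Tex, 2.76 (1.51 to 4.63) for GzmA+ Tex, 1.76 (1.31 to 2.31) for transitory Teff, 1.675 (1.25 to 2.20) for TIGIT+ Teff and 1.62 (1.05 to 2.39) for cycling cells. The interval held 1 in GzmB+ Teff, at 1.56 (0.937 to 2.43), in Tcm, at 1.25 (0.965 to 1.60), and in Tn, at 0.961 (0.569 to 1.52). Il7r was found with Il18r1 in 272 cells against 195, a ratio of 1.40 (1.24 to 1.57), and with Il18rap at 1.26 (1.09 to 1.45). Il12rb2 was found with Il18rap at 1.44 (1.09 to 1.88) and with Il18r1 at 1.36 (1.01 to 1.78). Ifngr1 was found with Il18rap at 1.13 (1.05 to 1.21), with Il18r1 at 1.12 (1.05 to 1.20) and with Il7r at 1.10 (1.02 to 1.18). Il7r with Il21r lay below 1, at 0.884 (0.791 to 0.985). The subunits Il2rb and Il2rg, which most cells held, were together in 6341 cells against 6337, a ratio of 1.001 (0.976 to 1.03), and Il7r with Il2rg had 1.01. For genes that most cells hold, the ratio cannot rise far above 1, so these values cannot be compared with that of the IL-18 receptor chains. The intervals treat cells as independent and cover counting error of the joint count. No ratio was computed for pairs of other genes, so no background share stands beside the 9 pairs. Clusters can also hold unlike cells. In transitory Teff, Il18r1 stood at 136 CPM in cells with the Tn Leiden number and 36.4 with the TIM-3+ Tex number, and Il7r differed likewise. The part of such mixture in the ratios was not tested.

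**Figure D5:**
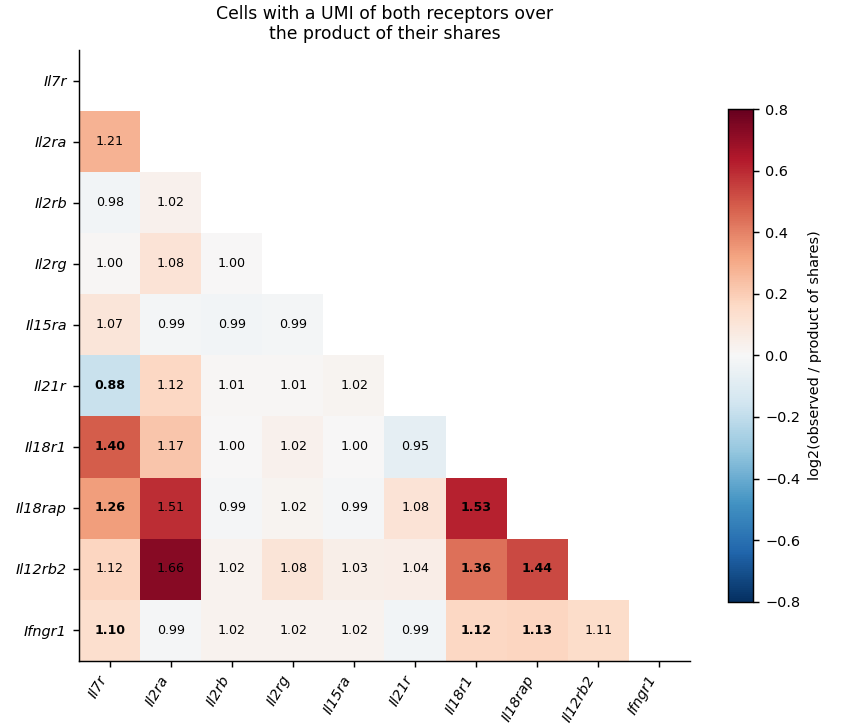
Cells at 2500 UMIs that held both genes of a pair, divided by the product of the shares of each gene summed over clusters and libraries, as a coloured matrix of the 10 genes; bold values have an interval that leaves out 1. Il18r1 with Il18rap has the value 1.53. Il2rb with Il2rg has 1.001, where the ratio cannot rise far above 1 because most cells held each gene.

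Other genes of these pathways were taken from lists. Of 12 further receptor chains 10 reached the minimum, and in Teff and Tex against Tn Il12rb1, the partner of Il12rb2 (27.2 against 9.17 CPM, log2 ratio 1.57), and Il10ra, the IL-10 receptor chain (196 against 52.7, 1.89), were higher by more than 2-fold. Il6ra, the IL-6 receptor, was lower (6.21 against 51.7 CPM, -3.06), as it was in Tcm against Tn (-5.56), in TIM-3+ Tex against transitory Teff (-3.30) and in cycling cells against Teff and Tex (-1.42), the direction of Il7r in each. Il12rb1 was also past 2-fold in Tcm against Tn (1.28), and no chain of the 10 other than Il12rb1, Il10ra and Il6ra was past 2-fold in any of the 4. Of the STAT genes, which encode transcription factors downstream of these receptors, Stat2 (28.0 against 11.7 CPM) and Stat3 (156 against 74.1) were higher by more than 2-fold in Teff and Tex than in Tn. Of 5 genes of IL-18 signalling or binding 4 reached the minimum and 0 were past 2-fold in any of the 4 comparisons. Beside these lists, 10.8% of all genes were higher and 1.03% lower by that fold in Teff and Tex against Tn. In the remaining comparisons the shares in either direction ran from 1.25% to 5.40%. A count of 0 among 4 genes cannot be told apart from such shares.

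Of 7 ligands, Il2 and Ifng reached the minimum. Ifng, which encodes the ligand of Ifngr1, stood at 163 CPM in Teff and Tex against 16.8 in Tn (log2 ratio 3.28) and 36.1 in Tcm (1.11). Il2 stood at 6.67 CPM in Teff and Tex, 1.65 in Tn, 17.1 in Tcm and 2.24 in cycling cells. Of 8 genes that STAT5 regulates in T cells, all of them measured, Bcl6 is listed as repressed by STAT5 and the others as induced. Among the 8, 2 were higher by more than 2-fold in Teff and Tex than in Tn, where 10.8% of all genes were. In Tcm 3 were, where 4.20% of all genes were, with none lower in either comparison. The median log2 ratio of the 8 was -0.10 in Teff and Tex and 0.50 in Tcm, against 0.30 and 0.13 over all genes. Cish, a feedback inhibitor of cytokine signalling, was higher in Teff and Tex (81.8 against 30.6 CPM, 1.42) and in Tcm (1.51) than in Tn. Socs2, another such inhibitor, was past 2-fold in Tcm (1.79). Bcl6, the gene that STAT5 represses, was higher by more than 2-fold in both (1.47 and 1.41). Bcl6, at 5.07 CPM over all cells, was also the 1 gene of the list past 2-fold in TIM-3+ Tex against transitory Teff, where it was lower (-1.28, -1.85 to -0.74), and none of the 8 was past it in cycling cells. Bcl2, the survival factor, was at 424 CPM in Tn, 402 in Tcm and 255 in Teff and Tex.

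The genes most like each receptor over the 32 profiles were named by the Pearson r of log2 levels among 5670 genes with at least 20 CPM. The points share libraries, depth and clusters, so r is a description. Il7r was most like Lcn4 (0.90), Ccr7 (0.90), a homing receptor of naive cells, and Dapl1 (0.89). Il2rb was most like Lrrk1 (0.90), Bcl2l11 (0.86), which encodes a pro-apoptotic protein, and Vav3 (0.85). Il12rb2 was most like 3 NK cell receptor genes, Klrc2 (0.90), Klrb1c (0.86) and Klrc1 (0.85). Il15ra was most like Irf1 (0.88), Tap2 (0.87) and H2-K1 (0.86), an interferon-regulated transcription factor and genes of antigen presentation. Il21r was most like Lcp2, Rasa1 and Nedd9, each at 0.93. Ifngr1 was most like Slc9a9 (0.89), Cxcr3 (0.86) and Otulinl (0.86), and Il2rg most like Phc2 (0.89), Shisa5 (0.86) and Jaml (0.84). For Il18r1 and Il18rap the highest r were 0.86 (Sidt1) and 0.84 (Arhgap26), and for Il2ra only 0.62 (Klrk1).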

How the data were processed

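BM CD8+ T cells of 4 libraries were sequenced on the 10x 5′ platform for gene expression and TCR. The deposited values are UMI counts by gene and cell without normalization, for which the authors ran Cell Ranger 7.00 against mm10 (both from the submitters' processing notes), downsampled reads across libraries, and kept cells that had 2500 to 25000 UMIs, expressed Cd8a and Cd3e/g, and were below 15% in mitochondrial UMIs. The deposited mitochondrial share of each cell is a fraction between 0 and 1. Cluster names and Leiden numbers (Monocle3) and clonotypes (scRepertoire) are those of the authors. The Leiden number of 837 cells (7.12%) belonged to another cluster name.

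For each cluster, the UMI sum of a gene was divided by the sum for all genes (CPM), with exact Poisson intervals. Ratios of CPM had exact conditional binomial intervals, and shares had Clopper-Pearson intervals after thinning each cell to 2500 UMIs (seed 7). Genes with at least 5 CPM over all cells were counted as past 2-fold or not. A count of 0 was given a limit of 3 counts. A clonotype was counted within its library, and 7961 cells had one, of which 722 had 2 TRB chains. Doublets were not removed. Symbols and positions came from GENCODE vM21 (GRCm38) and promoters from RefSeq (GRCm38.p6). Scripts ran in Python 3.11.15 (scipy 1.17.1, numpy 2.4.6, matplotlib 3.10.9, pandas 2.3.3), and the ratios and intervals were tested on simulated data.

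The genes, the pathway and marker lists and the comparisons were chosen with earlier results of these data known. Named genes are the 10 receptors, genes of the pathway lists past 2-fold, and the 3 genes with the highest Pearson r of log2(CPM + 10) with each receptor. Isg15, Gzma, Ly6c2, Eomes and Lef1 are named as single genes of the marker lists. Bcl2, Cd8b1, Fcer1g, Ifngr2, Klrb1c, Lyz2 and Ncr1 were named after their values were seen. Full results of the Janus kinase and STAT list and of the Tn, Tcm and interferon-induced gene lists are not reported here. Libraries could not be tied to treatments, so no treatment was compared. Alternatives changed depth, weighting of cells and libraries, cluster labels, filters and clonotype definition, or left out a library.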

Additional observations from a re-analysis of the deposited data

Results flagged for a closer look

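Ifngr1, in Teff and Tex clusters against Tn, had a log2 ratio of 0.46 in library 3 and -0.37 in library 4, each with an interval clear of 0, and differed by 0.83 between these libraries. Of the 5 Teff and Tex clusters, TIGIT+ Teff held the most Ifngr1 in each library. This cluster made up 39.2% of the Teff and Tex cells in library 3 and 3.94% in library 4. Within transitory Teff, Ifngr1 stood at 338 CPM in library 3 and 241 in library 4. Il2ra, in cycling cells against Teff and Tex clusters, had a log2 ratio of 0.96 in library 2 and -2.13 in library 4, a difference of 3.09, again with intervals clear of 0 that cover counting error only. Both stand here because libraries moved in opposite directions. The differences were not tested, since each library is 1 pool of mice of unknown treatment.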

How the results depend on the processing

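No test was made, paired or unpaired. Each library held cells on both sides of each cluster comparison, and the ratios within each of the 4 libraries stand beside the pooled ones. Counts of genes past 2-fold changed as follows, and the cause was not tested unless the setting itself removed genes or cells. The share of all genes past 2-fold was not computed under these settings. In Teff and Tex against Tn, where 2 of 9 genes passed, the count was 1 with 10 CPM added to both sides, 1 with a minimum of 20 CPM, which leaves out Il12rb2 and Il15ra, 1 without TIGIT+ Teff, and 3 with 1 cell per clonotype, with Il12rb2 added. It ran from 1 (without library 1) to 3 (without library 4) when a library was left out. In TIM-3+ Tex against transitory Teff, where 1 passed, the count was 3 with thinned cells, 2 with the mean of per-cell CPM, 2 with Leiden numbers, 4 with only cells that had a TCR call and 1 TRB chain, 3 with 1 cell per clonotype, 2 with the mean of the 4 libraries, and 2 without cells holding a UMI of the macrophage or B and plasma cell lists. It ran from 1 to 2 when a library was left out, 2 without library 2 or library 4. In cycling cells the count ran from 1 to 2 when a library was left out, 2 without library 2. The counts of 3 in Tcm against Tn and of 2 with clone size stayed within 1.5 times under every setting run, the latter being 3 with 1 cell per clone, which added Il18r1, and 3 without library 1, which added Il18rap. No called ratio changed sign. The Il7r log2 ratio ran from -2.59 to -1.65, -4.13 to -3.59, -5.06 to -2.01 and -2.29 to -1.48 in the 4 cluster comparisons and from -3.58 to -2.10 with clone size. Ifngr1 in Teff and Tex against Tn changed sign in 5 of 13 settings. Of 479 single log2 ratios, 112 moved beyond their counting interval. Some settings were chosen after seeing the data. These were the one without cells holding a UMI of the macrophage or B and plasma cell lists, and those without GzmA+ Tex or TIGIT+ Teff. For clone size they were 1 cell per clone, matching Leiden number and each library left out. Depth limits Il2ra and Il12rb2 most, with 491 and 1046 UMIs.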
